A study of Mus musculus with 8 samples.

Results

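Foxe3 and Pitx3, genes for transcription factors of the lens epithelium, were followed through 4 lists of accessible chromatin regions of the mouse lens. They are 2 of 21000 protein-coding genes with a curated RefSeq transcript, and they were chosen by name rather than by a measured value. The body of each gene plus 50 kb on each side made its window, and every peak that overlapped the window was taken, which gave 115 of the 345333 peaks of the 4 lists. Merged at a distance of 10 bp, these peaks formed 28 regions around Foxe3 and 22 around Pitx3, of 185271 merged regions on the 21 chromosomes.

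The study used ATAC-seq, in which the transposase Tn5 cuts open DNA and tags it for sequencing. Lens epithelium and lens fibers were separated by microdissection from CD1 mice, an outbred strain, with no mutation or treatment named, from embryos at E14.5 and from newborns at P0.5, in days of gestation and after birth. Each of the 4 groups had 2 libraries, which the authors pooled before they called peaks, so each value below is 1 pooled value with no error between replicates and no test across replicates. How cleanly the tissues were separated cannot be told apart from tissue or stage here. The lists also differ in sequencing depth, which drops out only where 2 summits of the same list are compared.

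Foxe3 is a forkhead transcription factor of the lens vesicle and the lens epithelium, where it keeps cells proliferating and where its loss leaves the lens attached to the cornea, as in the dysgenetic lens mouse. Pitx3 is a homeodomain transcription factor of the paired-like class, expressed in the lens, in skeletal muscle and in dopamine neurons of the midbrain. Deletions upstream of Pitx3 and over its first exon cause the aphakia mouse, whose eyes lack a proper lens. Pitx factors bind DNA at TAATCC, and a Foxe3 enhancer that binds Pitx3 is known from work on the lens. Lens fibers arise from epithelial cells that leave the cell cycle, elongate and fill with crystallins.

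In GRCm38, the assembly also called mm10, Foxe3 lies on chromosome 4 from 114924443 to 114926067 on the minus strand, with its single exon of 1625 bp starting at 114926067. Pitx3 lies on chromosome 19 from 46135685 to 46148325, also on the minus strand, with 4 exons across 12641 bp and its start at 46148325. The window of Foxe3 also holds Foxd2, another forkhead gene, the non-coding gene Foxd2os and the end of the nucleotide kinase gene Cmpk1. The window of Pitx3 also holds Elovl3, a fatty acid elongase gene whose end overlaps that of Pitx3, and the first part of Gbf1, which codes for a factor of Golgi transport. Gbf1 is transcribed away from Pitx3, and its first base, at 46152558, lies 4233 bp from the start of Pitx3.

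The sequences of the promoters of Foxe3 and Pitx3 and of the upstream region of Foxe3 are given here in RefSeq GRCm38 on the strand of the gene, from 5′ to 3′. Capitals mark matches to the 7 motifs that were searched on both strands. These were Pitx (TAATCC), Fox (TAAACA), Sox (ACAATG or ACAAAG), AP-2 (GCCNNNGGC), Tead (GGAATG), Maf (TGCTGA) and AP-1 (TGANTCA). The upstream region of Foxe3 is shown as the 300 bp at chr4:114929165-114929464 around the summit of E14.5 epithelium, since it held the highest-ranked epithelial peaks near Foxe3. The promoters are the 250 bp before the first base of the gene, at chr4:114926068-114926317 for Foxe3 and chr19:46148326-46148575 for Pitx3.
Foxe3 upstream region: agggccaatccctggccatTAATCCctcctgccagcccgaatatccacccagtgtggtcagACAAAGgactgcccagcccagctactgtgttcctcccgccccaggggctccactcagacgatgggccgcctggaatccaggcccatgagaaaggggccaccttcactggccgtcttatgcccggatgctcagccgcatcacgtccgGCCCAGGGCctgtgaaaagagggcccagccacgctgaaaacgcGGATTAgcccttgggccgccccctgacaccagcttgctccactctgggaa
Foxe3 promoter: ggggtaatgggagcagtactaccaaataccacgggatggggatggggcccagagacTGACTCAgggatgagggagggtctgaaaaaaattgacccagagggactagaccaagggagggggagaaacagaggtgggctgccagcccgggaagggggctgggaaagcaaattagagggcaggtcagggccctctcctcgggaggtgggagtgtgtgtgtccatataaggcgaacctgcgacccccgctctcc
Pitx3 promoter: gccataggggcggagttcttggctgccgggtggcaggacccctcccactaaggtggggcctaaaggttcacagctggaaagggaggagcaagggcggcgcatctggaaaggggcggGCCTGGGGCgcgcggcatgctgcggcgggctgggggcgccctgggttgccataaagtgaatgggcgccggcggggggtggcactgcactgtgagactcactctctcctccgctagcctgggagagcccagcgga

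In the upstream region of Foxe3, the Pitx motif matched on both strands, once on each, with the matches 3378 and 3147 bp upstream of the start. The Sox motif ACAAAG stood at 3336 bp and the palindromic AP-2 match GCCCAGGGC at 3190 bp upstream, so that the 4 matches spanned the summits of all lists. Of 185271 merged regions cut to 300 bp around their best summit, 8.38% held a Pitx match and 0.498% (923) held at least 2. The width is that of the printed sequence, and the count of at least 2 follows the pair found in it, so neither share is a test. In the 200 bp at its best summit, the width used for all regions below, the upstream region held no Pitx match. The promoter of Foxe3 held the AP-1 match TGACTCA at 194 bp upstream of the start, a motif found in 6.75% of 32851 promoters of 250 bp. The promoter of Pitx3 held the AP-2 match GCCTGGGGC at 134 bp upstream, a motif found in 13.7% of those promoters. A match describes the letters and does not show that a factor was bound.

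Base composition differed between these 3 stretches. The upstream region of Foxe3 was 63.3% G or C, the promoter of Foxe3 60% and the promoter of Pitx3 68.8%. The ratio of observed to expected CpG pairs was 0.445 in the upstream region, 0.292 in the Foxe3 promoter and 0.569 in the Pitx3 promoter. Over the 200 bp at the best summit, the median of this ratio was 0.529 in promoter regions and 0.222 in other regions, so the upstream region lay above the median of other regions and the Foxe3 promoter below that of promoter regions.

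The E14.5 lists held 100003 peaks for epithelium and 123743 for fibers, and the P0.5 lists 58592 and 62995. A peak is placed here by its rank by fold enrichment within its own list, as a percent of the list, where 1% means that fewer than 1 peak in 100 stood higher. In every list the fold enrichments were whole multiples of 1 step, and with a single background level per list they gave back the deposited p-values, so the number of fragments over each summit could be recovered. At E14.5 the background was 1.61 fragments per base for epithelium and 2.37 for fibers, and at P0.5 it was 1.36 and 1.16. The weakest peaks had 7, 8, 7 and 6 fragments in the same order. The P0.5 fiber list was the shallowest, with a median of 8 fragments at the summit against 13 to 15 in the other lists and with 48.9% of its peaks at a q value under 0.001 against 80.5% to 87.9%.

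The 8 genes listed as lens fiber markers, crystallins and fiber membrane or filament genes, all had a higher-ranked peak in fibers than in epithelium at both stages. Of the 3 genes listed as epithelium markers, 1 ranked higher in epithelium at both stages by the best peak of its promoter or body, while Pax6 and Pdgfra ranked higher in fibers. With q values under 0.001 all 3 ranked higher in epithelium at P0.5. Under that limit 53.1% of all protein-coding genes ranked higher in epithelium at P0.5 and 19.5% in fibers. Cdh1, the cadherin of epithelia, had its best peak at 9.01% for epithelium and 19.5% for fibers of E14.5, and at 14.6% and 34.7% of the P0.5 lists. Among the genes listed for cells beside the lens, the retinal gene Rax and the vessel genes Pecam1 and Cdh5 had a peak in every list. Rax stood at 5.51% to 14.0%, and the blood cell gene Ptprc stood at 16.4% for epithelium and 45.8% for fibers of E14.5. At P0.5 Ptprc stood at 16.5% for epithelium and had no fiber peak, so it ranked higher in epithelium at both stages, as the upstream region of Foxe3 did. The vessel gene Cdh5 went the other way, with 32.1% against 16.2% at E14.5 and 33.9% against 26.4% at P0.5, and Pecam1 had 32.1% against 27.2% and then 58.5% against 69.2%. With q values under 0.001 all 3 vessel and blood genes ranked higher in epithelium at P0.5, beside the same 53.1% of all genes. The keratin gene Krt12 of the cornea had no peak, and Krt5 had 1, at 75.7% of the P0.5 epithelium list. The part of such cells in the results below was not tested.

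The 4 lists held 18, 22, 11 and 10 peaks in the window of Foxe3, taking epithelium before fibers and E14.5 before P0.5, the order kept wherever 4 values follow each other. The windows of all protein-coding genes held medians of 8, 10, 5 and 5 peaks, and 68.8% to 80.3% of genes had fewer peaks than Foxe3. Peaks covered 10.3%, 11.2%, 5.12% and 3.27% of the Foxe3 window, against medians of 2.44%, 3.68%, 1.45% and 1.21%. Foxe3 thus stood above the median gene in every list by both counts.

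**Figure D1:**
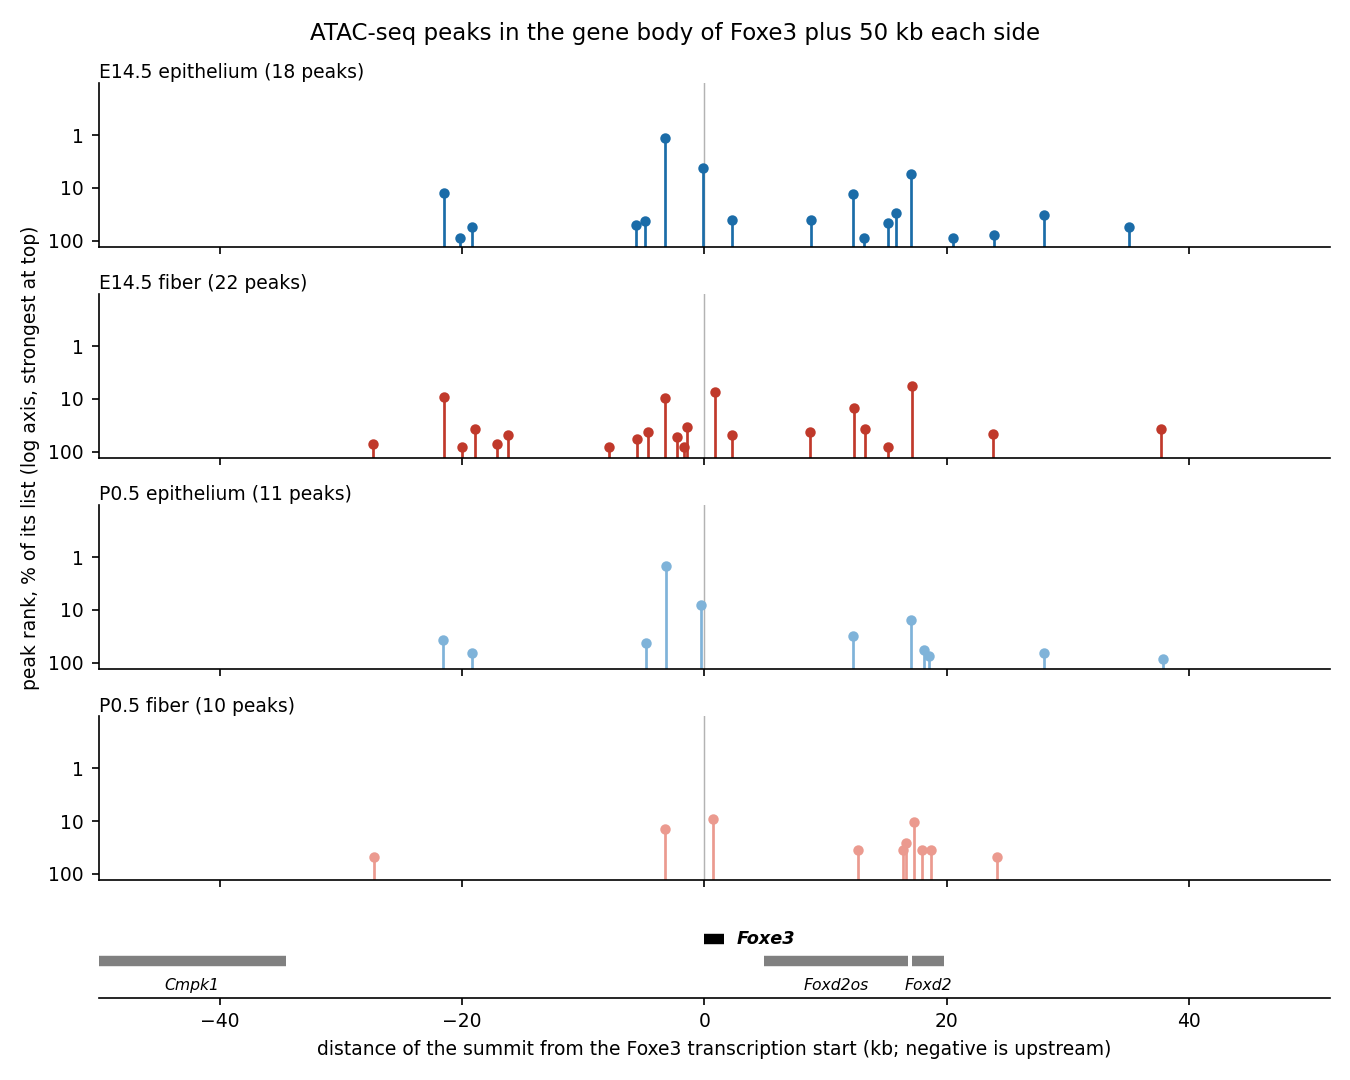
Peaks in the window of Foxe3, one panel per list. The x axis gives the distance of each summit from the start of Foxe3 in kb along the gene's strand, and the y axis gives the rank as a percent of the list on a log axis with the strongest peaks at the top; grey bars are neighbouring genes. The tallest peak of both epithelium panels lies upstream of the start, at 1.12% and 1.49%, and the same position stands at 9.56% and 14.0% in the fiber panels.

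The highest-ranked epithelial peaks near Foxe3 lay upstream of the gene, outside its promoter. This region, chr4:114929005-114929770, is 766 bp long, begins 2938 bp upstream of the start and overlaps no annotated gene. At E14.5 its peak stood at 1.12% of the epithelium list and 9.56% of the fiber list, and at P0.5 it stood at 1.49% and 14.0%. Both epithelium lists thus placed it higher than both fiber lists, and the fiber percent was 8.52 times the epithelium percent at E14.5 and 9.42 times at P0.5, or 16.7 times at P0.5 with q values under 0.001. The summits were covered by 214 epithelium fragments (95% Poisson interval 186 to 245) and 77 fiber fragments (60.8 to 96.2) at E14.5, then by 83 (66.1 to 103) and 14 (7.65 to 23.5) at P0.5. These intervals cover counting error only, and the counts are not scaled for depth.

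The upstream summits lay at 3248, 3233, 3190 and 3284 bp from the start, within 94 bp of each other in the 4 lists. In the P0.5 epithelium list the summit fell on the first base of the AP-2 match. The peak was 696 bp and 699 bp wide in epithelium and fibers of E14.5 and 737 bp wide in P0.5 epithelium, but 265 bp wide in P0.5 fibers.

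Among the 21000 genes, 120 had a higher-ranked peak 2 to 10 kb upstream of their start in the E14.5 epithelium list (0.571%) and 51 in that of P0.5 (0.243%). Among fiber lists, 1712 genes (8.15%) had one at E14.5 and 1130 genes (5.38%) at P0.5. In all, 2914 genes had such an upstream peak in all 4 lists, and the percent in fibers was at least 5 times that in epithelium at both stages for 5 of them, or 0.172%, and for 6 of 2319 (0.259%) with q values under 0.001. The 5 genes were Foxe3, 4933430I17Rik, Chml, Tkt and Wdr64; the factor of 5 was chosen after the values of Foxe3 were known, so this share describes how many genes have a pattern like that of Foxe3 and is no test of it. The gene added under the stricter limit was Zkscan14.

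At the promoter and body of Foxe3, the ranks of epithelium and fibers lay closer together. The best E14.5 peak stood at 4.26% for epithelium and 7.48% for fibers, and the best P0.5 peak at 7.95% and 9.32%. The summits were covered by 125 epithelium fragments (95% Poisson interval 104 to 149) and 102 fiber fragments (83.2 to 124) at E14.5, then by 48 (35.4 to 63.6) and 18 (10.7 to 28.4) at P0.5. Epithelium thus ranked higher than fibers at both stages, by 1.76 times at E14.5 and 1.17 times at P0.5, or 2.08 times when the P0.5 lists were limited to q values under 0.001. Over all protein-coding genes, the best peak of the promoter or body was higher in epithelium for 22.4% and higher in fibers for 55.1% at E14.5, and for 33.7% and 42.1% at P0.5. With q values under 0.001 these shares were 27.3% and 49.2% at E14.5, but 53.1% and 19.5% at P0.5. A higher rank in epithelium was therefore the less common direction at E14.5 under both limits. For P0.5 the more common direction turned with the limit, while Foxe3 ranked higher in epithelium under both.

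Both genes had a peak within 2 kb of the start in all 4 lists, as did 60.6% of protein-coding genes. The place of the summit within the Foxe3 peak differed between the tissues. In epithelium it lay upstream of the start, by 144 bp at E14.5 and 301 bp at P0.5. In fibers it lay inside the single exon, 914 bp downstream of the start at E14.5 and 675 bp at P0.5. The P0.5 fiber peak began 236 bp downstream of the start and did not cover it, whereas the other 3 peaks did.

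The gap between the epithelium and fiber summits was thus more than 500 bp at both stages. Of 17221 promoter regions with a peak in both tissues at E14.5, 2.86% had summits at least 500 bp apart, and of 12639 such regions at P0.5, 7.18% had. The median gap was 30 bp at E14.5 and 62 bp at P0.5. In regions at least 1500 bp wide it was 27 bp and 69 bp, and the Foxe3 region was 2285 bp wide. The shares cover regions of all widths, some too narrow for a gap of 500 bp. They were not taken for wide regions alone, where they may be larger. The limit of 500 bp was chosen after the Foxe3 summits were seen. The lists give only 1 summit per peak, so a second maximum of similar height inside the same peak would not appear in them.

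**Figure D2:**
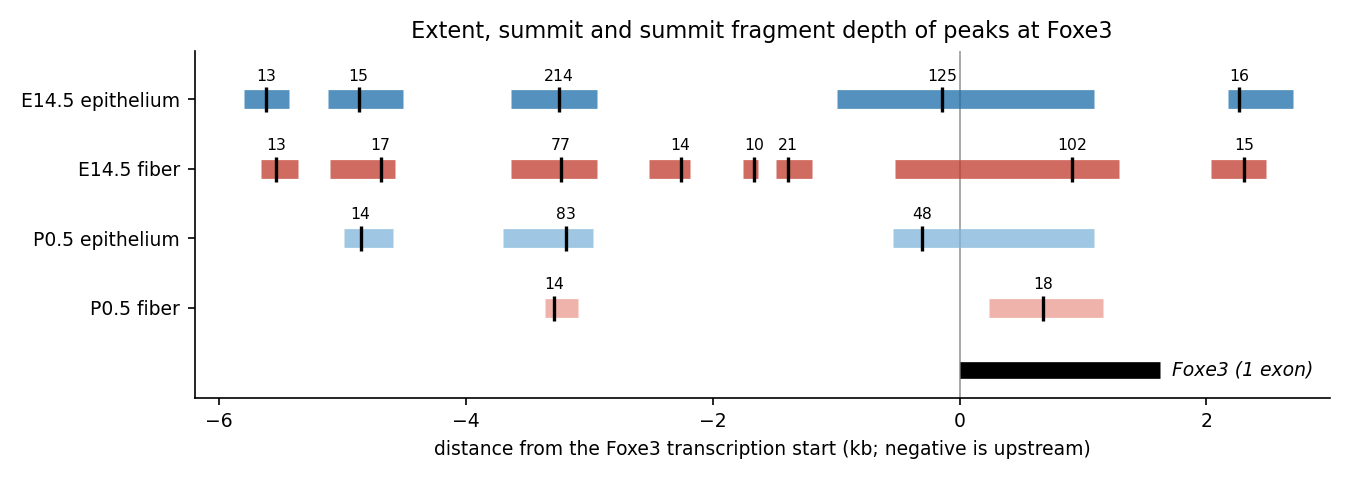
Peaks from 6.2 kb upstream to 3 kb downstream of the Foxe3 start in the 4 lists. Coloured bars are peak extents, black ticks are summits, the number above each tick is the count of fragments over the summit, and the black bar is the single exon. The epithelium summits near 0 lie upstream of the start and the fiber summits lie inside the exon, while the upstream summits of the 4 lists coincide within 94 bp.

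The upstream region was next set against the promoter and body of Foxe3 within each list, which removes differences in depth between lists. The summit at the promoter and body did not lie at the same place in both tissues. It was 144 and 301 bp upstream of the start in epithelium, but 914 and 675 bp downstream, inside the exon, in fibers. The share thus does not compare the same pair of sites between tissues, and fiber depth at the epithelium summit is not known. The upstream summit held 63.1% of the fragments over the 2 summits in epithelium of E14.5 (214 of 339, exact 95% binomial interval 57.7% to 68.3%) and 43.0% in its fibers (77 of 179, 35.7% to 50.6%). At P0.5 it held 63.4% in epithelium (83 of 131, 54.5% to 71.6%) and 43.8% in fibers (14 of 32, 26.4% to 62.3%). The upstream summit was therefore the taller one in both epithelium lists and the lower one in both fiber lists. The difference between epithelium and fibers was 20.1 points at E14.5 (95% Newcombe interval 11.1 to 28.7) and 19.6 points at P0.5 (0.660 to 37.0). Between the stages the epithelium lists differed by −0.232 points (−9.61 to 9.63) and the fiber lists by −0.733 points (−19.1 to 16.5). These intervals cover counting error in these pooled libraries, not the spread between replicates, and the 32 fragments in P0.5 fibers left that share imprecise.

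The same share was taken for the 2436 protein-coding genes with both kinds of peak in all 4 lists. The median difference of epithelium minus fibers was 0.604 points at E14.5 and −2.39 points at P0.5. A larger difference than that of Foxe3 was found for 75 genes (3.08%) at E14.5 and 95 genes (3.90%) at P0.5. At least 15 points at both stages were reached by 34 genes, or 1.40%, with Foxe3 among them, and 32 genes reached 15 points in the opposite direction at both stages. The limit of 15 points was chosen after the values of Foxe3 were known.

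**Figure D3:**
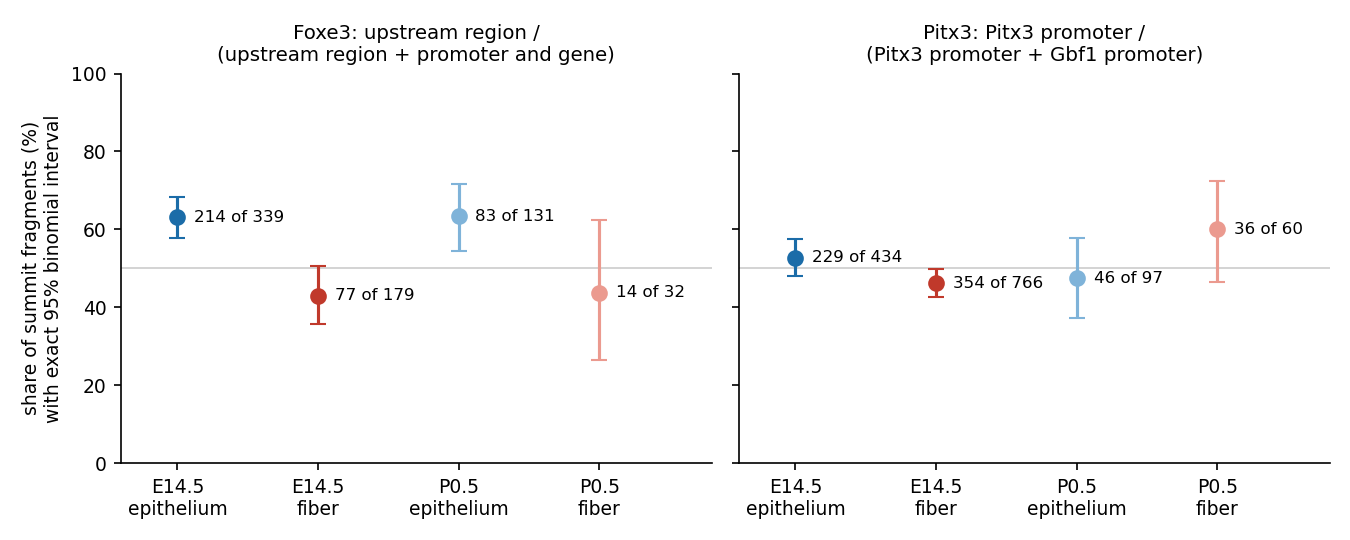
Shares of summit fragments in each list with exact 95% binomial intervals, which cover counting error only. The left panel gives the Foxe3 upstream summit as a percent of that summit and the summit at the promoter and body together. The percent is near 63% in both epithelium lists and near 43% in both fiber lists. The summit at the promoter and body lies upstream of the start in epithelium and inside the exon in fibers. The right panel gives the Pitx3 promoter as a percent of the Pitx3 and Gbf1 promoters together, which stays between 46.2% and 60%.

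Other regions lay around Foxe3, some of them at its neighbours. The promoter region shared by Foxd2 and Foxd2os, with its E14.5 epithelium summit 17041 bp downstream of the Foxe3 start, stood at 5.46%, 5.60%, 15.8% and 10.3% of the 4 lists. A region in Foxd2os, 12292 bp downstream, stood at 13.0%, 14.6%, 31.6% and 34.7%. With the upstream region and the Foxe3 promoter, these made 4 of the 28 regions with a peak in all 4 lists, against 10.9% of merged regions in the whole series.

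At 21529 bp upstream of Foxe3, inside the predicted non-coding gene Gm40229, a region stood at 12.3% and 9.05% in epithelium and fibers of E14.5 and at 36.4% in P0.5 epithelium. Its summits were covered by 51, 82 and 16 fragments. Among E14.5 fiber peaks it thus ranked above the upstream region of Foxe3, which stood at 9.56% with 77 fragments. The P0.5 fiber list had no peak there, and its weakest peaks needed 6 fragments. A second region, 28054 bp downstream inside the predicted non-coding gene Gm33655, was called in epithelium at both stages and in neither fiber list, with 20 fragments at E14.5 (32.1%) and 10 at P0.5 (66.3%). It was the single region around either gene called in both epithelium lists and in neither fiber list. The share of all merged regions with this pattern was not taken, so the count is a description.

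Counted by which lists called them, 4 of the 28 Foxe3 regions were called in epithelium and not in fibers at E14.5, 8 in fibers and not in epithelium, and 14 in both. Over all merged regions these shares were 16.3% for epithelium without fibers and 33.0% for fibers without epithelium. At P0.5, 5 regions were called in epithelium and not in fibers, 2 in fibers and not in epithelium, and 4 in both, against 16.3% and 18.4% of all merged regions for the first and the second. With each list limited to equal numbers of peaks, the E14.5 order turned, to 5 in epithelium and not in fibers and 4 the other way. With the peaks of each list limited to a q value under 0.001, no region around Foxe3 was called in P0.5 fibers and not in P0.5 epithelium.

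Between the stages, 10 Foxe3 regions were called in E14.5 and not in P0.5 epithelium, 1 at P0.5 and not at E14.5, and 8 at both. Of all merged regions, 27.6% were called in epithelium at E14.5 and not at P0.5, and 6.24% the other way. In fibers, 17 regions were called at E14.5 and not at P0.5, 1 the other way and 5 at both, against 50.2% and 14.1% of all merged regions. The direction of these counts was thus that of the whole lists, which were longer at E14.5.

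The window of Pitx3 held 14 epithelium and 22 fiber peaks at E14.5, and 8 and 10 at P0.5. Between 65.9% and 80.3% of protein-coding genes had fewer. Peaks covered 6.87%, 13.7%, 2.80% and 4.19% of the window. In both stages the fiber list held more peaks and covered more of the window than the epithelium list, while the Foxe3 window at P0.5 had the opposite order. The P0.5 order of the Pitx3 peak counts did not hold under other limits, with 8 epithelium and 5 fiber peaks at q values under 0.001 and 8 of each with equal numbers of peaks.

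**Figure D4:**
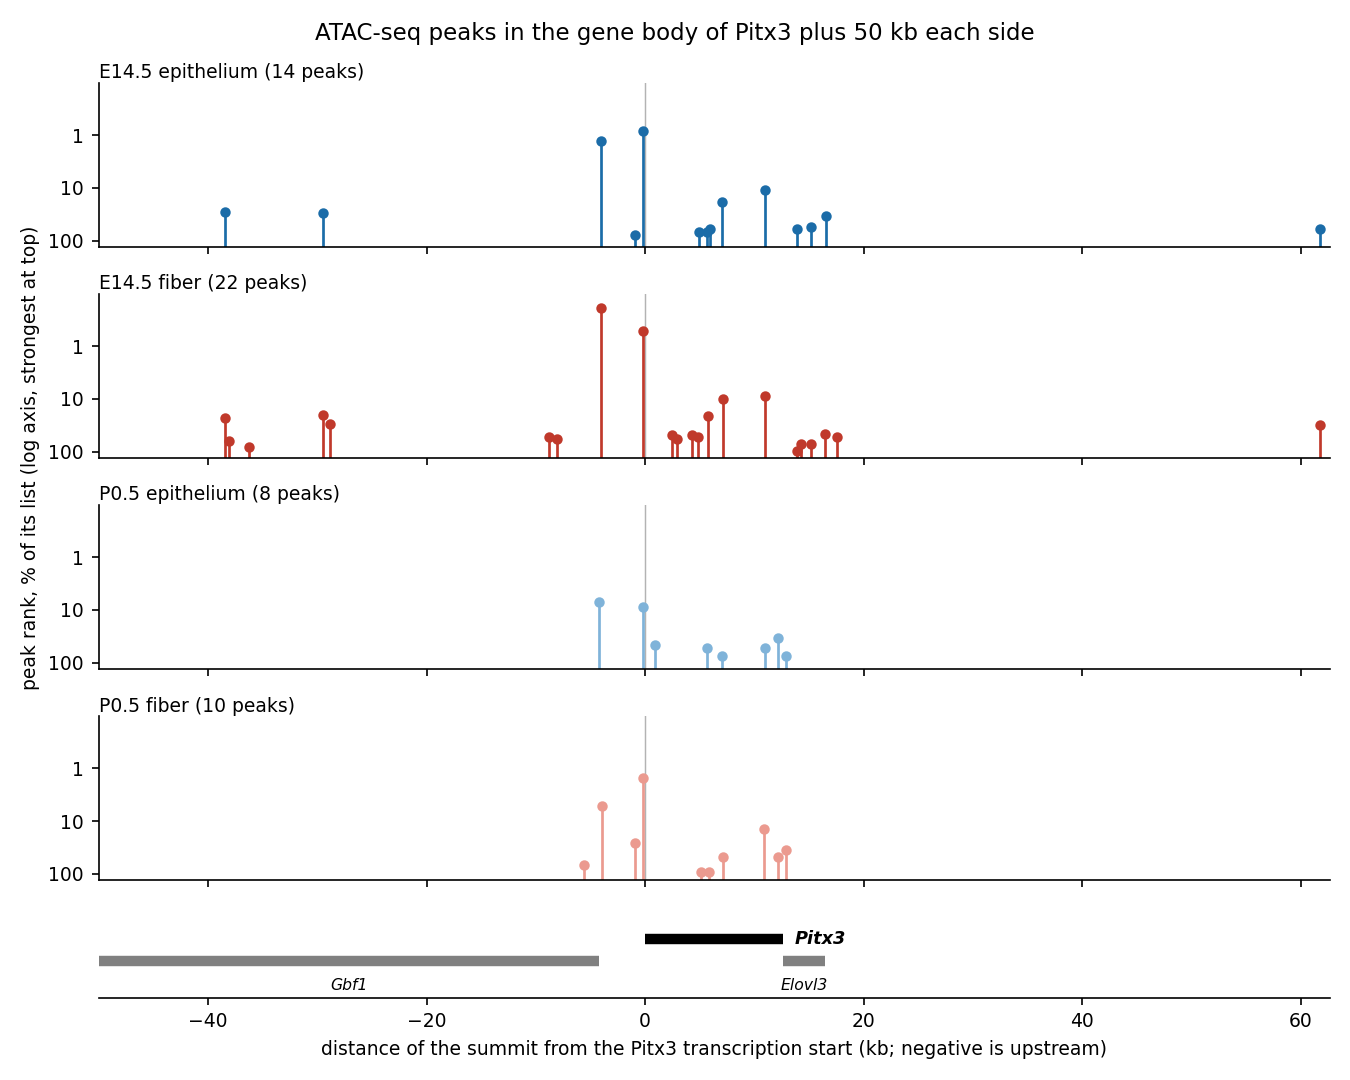
Peaks in the window of Pitx3, drawn as for Foxe3, with the distance of each summit from the Pitx3 start on the x axis in kb and the rank as a percent of the list on the log y axis. The promoter of Pitx3 and, 4045 bp upstream of its start, that of Gbf1 form the tallest pair in all 4 panels.

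The promoter of Pitx3 carried the highest-ranked peak of that gene in every list. The E14.5 peak stood at 0.819% for epithelium and 0.523% for fibers, and the P0.5 peak at 8.70% and 1.50%. Fibers ranked it higher than epithelium at both stages, with a fiber percent of 0.638 times the epithelium percent at E14.5 and 0.172 times at P0.5 (0.305 times with q values under 0.001), the reverse of the order at the Foxe3 promoter. The fold enrichment at P0.5 had the opposite order, 19.96 in epithelium and 17.15 in fibers, so the P0.5 order held for ranks within the lists and not for the values ranked. The summits were covered by 229 epithelium fragments (95% Poisson interval 200 to 261) and 354 fiber fragments (318 to 393) at E14.5, then by 46 (33.7 to 61.4) and 36 (25.2 to 49.8) at P0.5. Of the 21000 genes, 4.43%, 3.54%, 24.7% and 4.75% had a higher-ranked best peak in the 4 lists, so P0.5 epithelium was the list in which the Pitx3 promoter stood lowest.

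Unlike at Foxe3, the summits at the Pitx3 promoter kept 1 place. They lay 203, 205, 204 and 236 bp upstream of the start, within 33 bp of each other. The AP-2 match GCCTGGGGC at 134 bp upstream lay between these summits and the start.

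The Gbf1 promoter, the strongest peak 2 to 10 kb upstream of Pitx3, stood at 1.31% for epithelium and 0.187% for fibers at E14.5 and at 6.94% and 5.11% for P0.5. The fold enrichment at P0.5 had the opposite order, 22.1 in epithelium and 11.6 in fibers, over 51 and 24 fragments. The P0.5 order of ranks also turned when peaks were limited to q values under 0.001, with a fiber percent of 1.31 times the epithelium percent. Gbf1 is used by most cells, and its promoter is reported here because it is the nearest strong peak to that of Pitx3. The Pitx3 promoter held 52.8% of the fragments over the 2 summits in epithelium of E14.5 (229 of 434, exact 95% binomial interval 47.9% to 57.5%) and 46.2% in its fibers (354 of 766, 42.6% to 49.8%). At P0.5 it held 47.4% in epithelium (46 of 97, 37.2% to 57.8%) and 60% in fibers (36 of 60, 46.5% to 72.4%). The difference of epithelium minus fibers was 6.55 points at E14.5 (95% Newcombe interval 0.666 to 12.4) and −12.6 points at P0.5 (−27.5 to 3.44). Set against its neighbour, the Pitx3 promoter therefore had no direction between the tissues that held at both stages.

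Inside the Pitx3 gene, 3 further regions had a peak in all 4 lists. The region over the last exons, chr19:46135225-46137944, reached into the end of Elovl3 and stood at 10.9%, 8.77%, 33.9% and 14.0%. At P0.5 its fold enrichment was 7.64 in epithelium and 6.95 in fibers, again opposite to the ranks. Over the 9 regions around either gene with a peak in all 4 lists, the P0.5 fold was higher in epithelium each time, whichever tissue ranked higher. This count was not taken over all 20112 merged regions with a peak in all 4 lists, so it is not a trait of these genes. In E14.5 fibers the region over the last exons was a single peak of 2720 bp, and at P0.5 each list had it as 3 separate peaks. The summits behind these 4 ranks lay in exons of Pitx3.

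The other regions of the gene body lay in the first intron. The region chr19:46140008-46142040 holds the first exon of a predicted shorter Pitx3 transcript that starts at 46141213. It stood at 18.9%, 10.2%, 75.7% and 48.9% of the lists, with 33, 71, 9 and 8 fragments. The summits lay 6996 to 7147 bp downstream of the curated start, within 151 bp of each other, and the predicted start lies in the same stretch. The region chr19:46142259-46142863 stood at 61.2%, 21.4%, 52.3% and 91.3%, with 11, 33, 12 and 6 fragments, the last at the lower limit of its list. E14.5 fibers thus had the highest rank of the 4 lists at each of these 3 regions and at the Pitx3 and Gbf1 promoters. At the Elovl3 promoter, 2 regions were called in both tissues of E14.5, and there epithelium ranked higher, at 33.9% against 45.8% and at 55.5% against 71.6%.

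**Figure D5:**
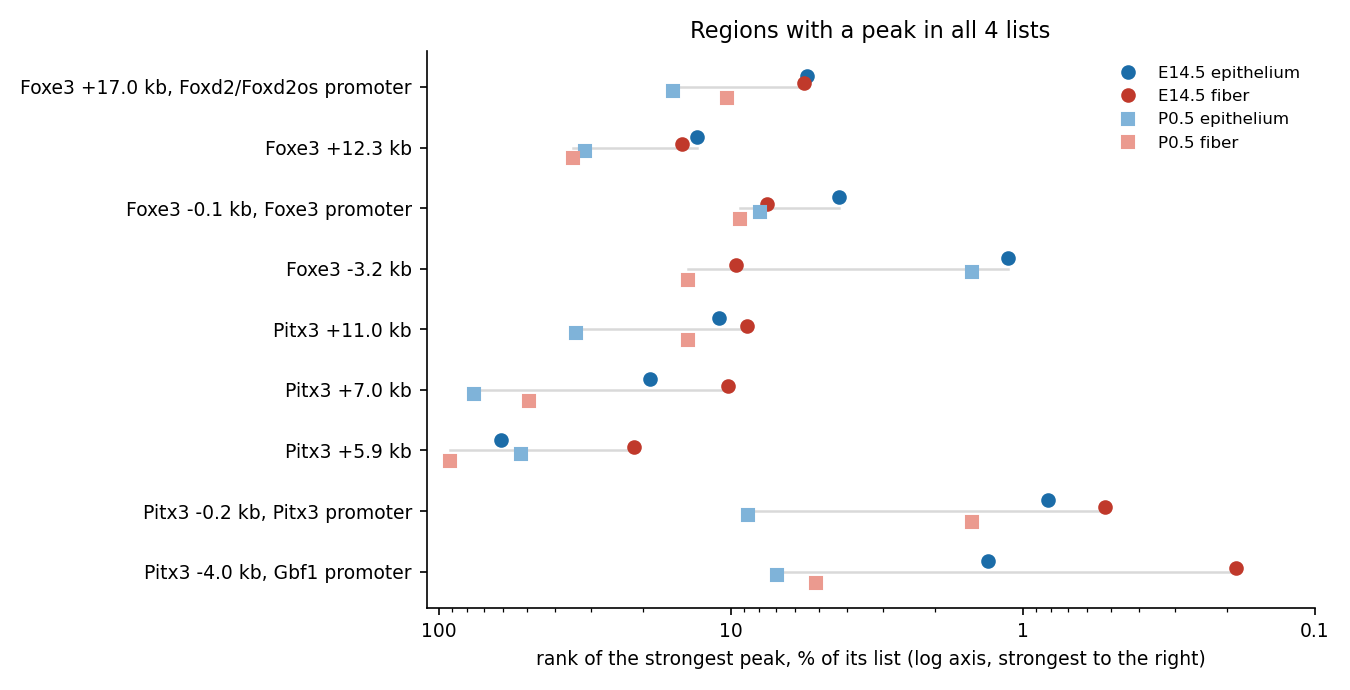
The 9 regions with a peak in all 4 lists, named by the distance of their E14.5 epithelium summit from the Foxe3 or Pitx3 start. The x axis is the rank of the strongest peak as a percent of its list, on a log axis with the strongest to the right; circles are E14.5 and squares P0.5, blue tones epithelium and red tones fibers. Both blue symbols stand to the right of both red ones at 1 of the 9 regions, the Foxe3 upstream region.

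No region around Pitx3 was called in epithelium and not in fibers, at either stage. At E14.5, 10 of the 22 regions were called in fibers and not in epithelium and 12 in both, and at P0.5 the counts were 1 and 5. The shares over all merged regions were 33.0% for fibers without epithelium and 16.3% for the opposite at E14.5, with 18.4% and 16.3% at P0.5. All 10 regions with a peak of a single list were E14.5 fiber peaks, with 10 to 24 fragments. Around Foxe3, 7 of the 12 regions with a peak of a single list were E14.5 fiber peaks. The E14.5 fiber list was the longest, with 123743 peaks. The share of such regions over all merged regions was not taken, so the count around Pitx3 is a description and not a trait of the gene. When each list was limited to its 58592 strongest peaks, as many as the shortest list holds, the counts at E14.5 became 3 in fibers and not in epithelium and 2 the other way, and with q values under 0.001 they were 9 and 1. The P0.5 order turned under the same limits, to 0 in fibers and not in epithelium and 1 the other way with equal numbers, and to 0 and 2 with q values under 0.001. Between the stages, 7 regions were called in epithelium at E14.5 and not at P0.5 and 16 in fibers, with 0 the other way in both tissues, beside the shares of 27.6% and 50.2%, and of 6.24% and 14.1% the other way, over all merged regions.

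The kinds of region were counted from the curated genes of each window, where distal means outside their promoters and bodies. Regions inside the predicted genes Gm33655 and Gm40229 thus counted as distal. The counts depend on the layout of the genes, and their shares over all merged regions were not taken. Around Foxe3, 19 of 28 regions were distal, 6 lay at promoters and 3 in other parts of genes. Around Pitx3, 16 of 22 lay in gene bodies, 5 at promoters and 1 was distal.

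In the 200 bp centred on the best summit, the Pitx motif stood in 1 of the 28 Foxe3 regions and 2 of the 22 Pitx3 regions, and in 5.64% of all merged regions. The matches in the Foxe3 upstream region and in the regions at the Pitx3 and Gbf1 promoters lay outside those 200 bp. Over whole regions, 2 Foxe3 and 6 Pitx3 regions held a Pitx match, against 10.1% of all merged regions. The Sox motif was the most common one around Foxe3, with 10 of 28 regions and 24.8% of all merged regions over those 200 bp. The Fox motif stood in 1 Foxe3 and 2 Pitx3 regions, against 8.47% of all regions.

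Other regulators of the lens give the scale for both genes, by the best peak of promoter or body. Of 9 genes of the epithelium and early lens, 1 ranked higher in epithelium than in fibers at E14.5, and 4 did so at P0.5, beside 22.4% and 33.7% of all protein-coding genes. Pax6, which directs eye formation, stood at 3.73%, 0.479%, 6.64% and 6.31% of the 4 lists. Myc, a driver of proliferation, was the 1 at E14.5, at 5.15% against 8.77%, and stood at 7.24% against 14.0% at P0.5. Foxe3 had that direction of Myc at both stages, and Pitx3 had the direction of the other 8 genes at E14.5. With q values under 0.001, 7 of the 9 genes ranked higher in epithelium at P0.5, beside 53.1% of all genes, and Pitx3 still ranked higher in fibers.

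Of 6 regulators of fiber differentiation, 2 ranked higher in epithelium at each stage, beside the same 22.4% and 33.7% of all genes. Maf, the leading activator of crystallin genes, stood at 4.52% for epithelium against 1.24% for fibers at E14.5, with 12.8% against 6.31% at P0.5. Of 6 genes known to act downstream of Foxe3 or Pitx3, Cdkn1b, an inhibitor of the cell cycle, ranked higher in epithelium at both stages, at 3.64% against 3.74% at E14.5 and 7.24% against 15.7% at P0.5. The other 5 ranked higher in fibers at both stages, apart from Pdgfra at P0.5 with q values under 0.001. Among them, Mip, the water channel of fibers, had 16.0% against 2.12% at E14.5 and 36.4% against 14.0% at P0.5. Pdgfra, a growth factor receptor of the epithelium, had 6.84% against 4.26% and 10.8% against 10.3%.

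The genes with the pattern of best peaks most like each member were found among 13882 protein-coding genes with a peak in all lists, by the largest ratio of percents over the 4 lists. For Foxe3 they were Sfxn4 (largest ratio 1.15), Ptpn14 (1.17) and Snx19 (1.21). For Pitx3 they were Ddx17 (1.13), E4f1 (1.28) and Eif4a1 (1.35). This likeness rests on 4 pooled values per gene and concerns the promoter and body alone, not the upstream region of Foxe3.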

How the data were processed

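The deposited files are 4 lists of ATAC-seq peaks, 1 for each tissue and stage. Per the submitters' processing notes, the tools were Trim Galore 0.4.1, Bowtie2 2.3.3.1, SAMtools 1.2, Picard 2.1.1 and MACS2 2.1, with the mm10 build. Mitochondrial and duplicate reads were discarded by the authors, and MACS2 was run on both libraries of each group together, with q values under 0.05 kept. As deposited, the fold enrichment is a ratio of the fragments at a summit to the background, and the −log10 p and −log10 q values were deposited with it. All columns were assigned to a group, with 0 left over.

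Fold enrichments were whole multiples of 1 step per list (100% of peaks, tolerance 0.01 steps). Each multiple less 1 was taken as the fragments over the summit, with 1 background level per list; the Poisson p-values computed from these gave back the deposited −log10 p values for 100% of the peaks that could be computed. Within a list these values used a single background level, so a locally raised background was not taken into account. Fragment counts carry exact intervals, which cover counting error only.

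Peaks were merged with bedtools 2.31.1 at 10 bp and placed with curated RefSeq transcripts (45756) in python 3.11.15, pandas 2.3.3, numpy 2.4.6 and pysam 0.24.0; figures used matplotlib 3.10.9. A promoter was 2 kb on each side of a start, and upstream peaks lay 2 to 10 kb from it, outside the promoter. The steps were tested on simulated data. The named genes are both members, genes at peaks of their windows, the listed regulators and markers, and the 3 genes most like each member; the other genes with an upstream pattern like that of Foxe3 were named after their values were seen. The members, lists and limits were chosen with earlier results of these data known, and the fragment shares and the counts with q values under 0.001 over all genes and over the gene lists were added after the values were seen. Read coverage and single libraries were not analysed here. A single one of the listed markers is not reported here.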

Additional observations from a re-analysis of the deposited data

How the results depend on the processing

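Of 140 recomputed values, 107 stayed within 1.5 times of the value reported, 32 moved further and 1 ratio changed sides of 1. The order of separate counts or coverages was not part of this tally. With equal numbers of peaks the order of the tissues turned in the Foxe3 window at E14.5, to 12 peaks in epithelium against 11 in fibers and a coverage of 9.1% against 8.5%. Ranking by −log10 p could not change a percent, since it gives 100% of peaks the same rank as fold enrichment does. Equal numbers of peaks likewise kept the whole P0.5 epithelium list. Values that rest on these settings alone could not move, and they are among the 107. With a q value under 0.001, the fiber percent over the epithelium percent at P0.5 became 2.08 for the best own peak of Foxe3 and 0.305 for that of Pitx3, and 16.7 for the upstream peak of Foxe3. It reversed to 1.31 for the Gbf1 promoter upstream of Pitx3. The Foxe3 upstream ratio lay between 8.52 and 16.7 over all settings and stages. The Pitx3 window then held 5 peaks in P0.5 fibers. With equal numbers of peaks, the windows held 11 peaks for Foxe3 in E14.5 fibers, and 8 and 9 for Pitx3 in E14.5 epithelium and fibers. With a flank of 100 kb, the Pitx3 window held 33, 48, 21 and 22 peaks in the order of the report.

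Regions called in fibers and not in epithelium became 4 for Foxe3 at E14.5 (equal numbers) and 0 at P0.5 (q under 0.001). For Pitx3 they became 3 at E14.5 (equal numbers) and 0 at P0.5 (q under 0.001 and equal numbers). Regions called in epithelium and not in fibers became 1 and 2 for Pitx3 at E14.5 and 2 and 1 at P0.5 (q under 0.001 and equal numbers). Searched over whole regions, the Pitx motif stood in 2 Foxe3 and 6 Pitx3 regions. With q values under 0.001, chosen for these lists after the data were seen, 7 genes of the epithelium and early lens and 2 downstream genes ranked higher in epithelium at P0.5. Causes of these changes were not tested.

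No paired analysis was possible because the lists pool the 2 libraries of a group, and for the same reason no library could be left out. In P0.5 fibers, summits of 6 to 18 fragments limit what can be said of either gene apart from the Pitx3 promoter. The fragment shares have no alternative setting, since they rest on the summits alone.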
